A study of Ovis aries with 20 samples.

Results

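The genes described here are 9 that encode secreted proteins of airway submucosal glands and of mucosal defence, PIGR, LTF, LPO, BPIFB1, MSMB, GP2, ZG16B, TCN1 and DMBT1. They were picked by name out of the 24478 genes of the count tables, 8 by the symbol in the tables and DMBT1 through its gene identifier, LOC105601930, in the RefSeq gene table. Gene positions are given as the count tables have them. All 9 were among the 20097 genes with enough counts to be tested. RNA was sequenced from tracheal tissue of sheep, labelled epithelial, at days 65, 80, 100, 120 and 147, the last of which is birth. At each age 2 libraries came from animals with cystic fibrosis (CF) and 2 from normal animals (WT), 20 libraries in all. The series addresses early developmental deficits in a sheep model of CF, a disease caused by loss of CFTR, the chloride and bicarbonate channel of epithelia. The labels give neither the CFTR allele nor the pedigree of the animals.

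Submucosal glands bud from the airway surface before birth, branch into the tissue beneath it, and differentiate into serous cells, which secrete water, antibody and antimicrobial enzymes, and mucous cells, which secrete gel-forming mucins. In CF the glands secrete little fluid, and plugged glands and infected airways are hallmarks of the disease. The proteins of the genes described here bind iron, make oxidants, carry antibody or vitamin, or bind bacteria in the fluid that lines the airway. Several of them are also made by secretory cells of the airway surface, so the label gland is used here in the broad sense.

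The libraries held 42372433 to 87651829 counts each, and the levels below are CPM values, counts scaled to a common library size. CFTR itself ran from 4.30 to 37.1 CPM in the CF libraries and from 10.2 to 37.8 CPM in the WT libraries, and its total does not check the genotype labels. The summed level of 20 epithelial genes was at least 1443 CPM in every library. Genes of other tissues stood out in 4 libraries, muscle genes in CF day 80 replicate 1, liver genes in CF day 65 replicate 2, thyroid genes in WT day 80 replicate 2, and thymus and muscle genes in WT day 65 replicate 2. Both CF day 147 libraries carry 1 sample identifier, as do both WT day 100 libraries, so those pairs may each come from 1 animal. Another identifier stands on both WT day 65 replicate 2 and CF day 100 replicate 2, across genotype and age, and the labels do not resolve it. P-values therefore measure the spread between libraries, which may be technical. In tissue RNA, fewer cells of a kind and less RNA per cell cannot be told apart.

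All 9 genes were higher at birth than at day 65 over both genotypes. The 9 were chosen with earlier results of these data known, so the counts of calls here and below are not independent of that choice. PIGR, MSMB and GP2, which lay near or under 5 CPM in all 4 libraries of day 65, had the largest increases, at 798-fold, 531-fold and 435-fold. DMBT1, already at 407 CPM or more in every library of day 65, had the smallest increase, at 4.82-fold. The 9 of 9 called, all higher, stand against 18.6% of all tested genes called in either direction, 8.77% called higher and 9.86% called lower (edgeR's quasi-likelihood test, adjusted p under 0.05). The median log2 fold change was 6.49 over the 9 genes and -0.03 over all tested genes, and for each of the 9 every library of day 147 lay above every library of day 65.

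**Figure D1:**
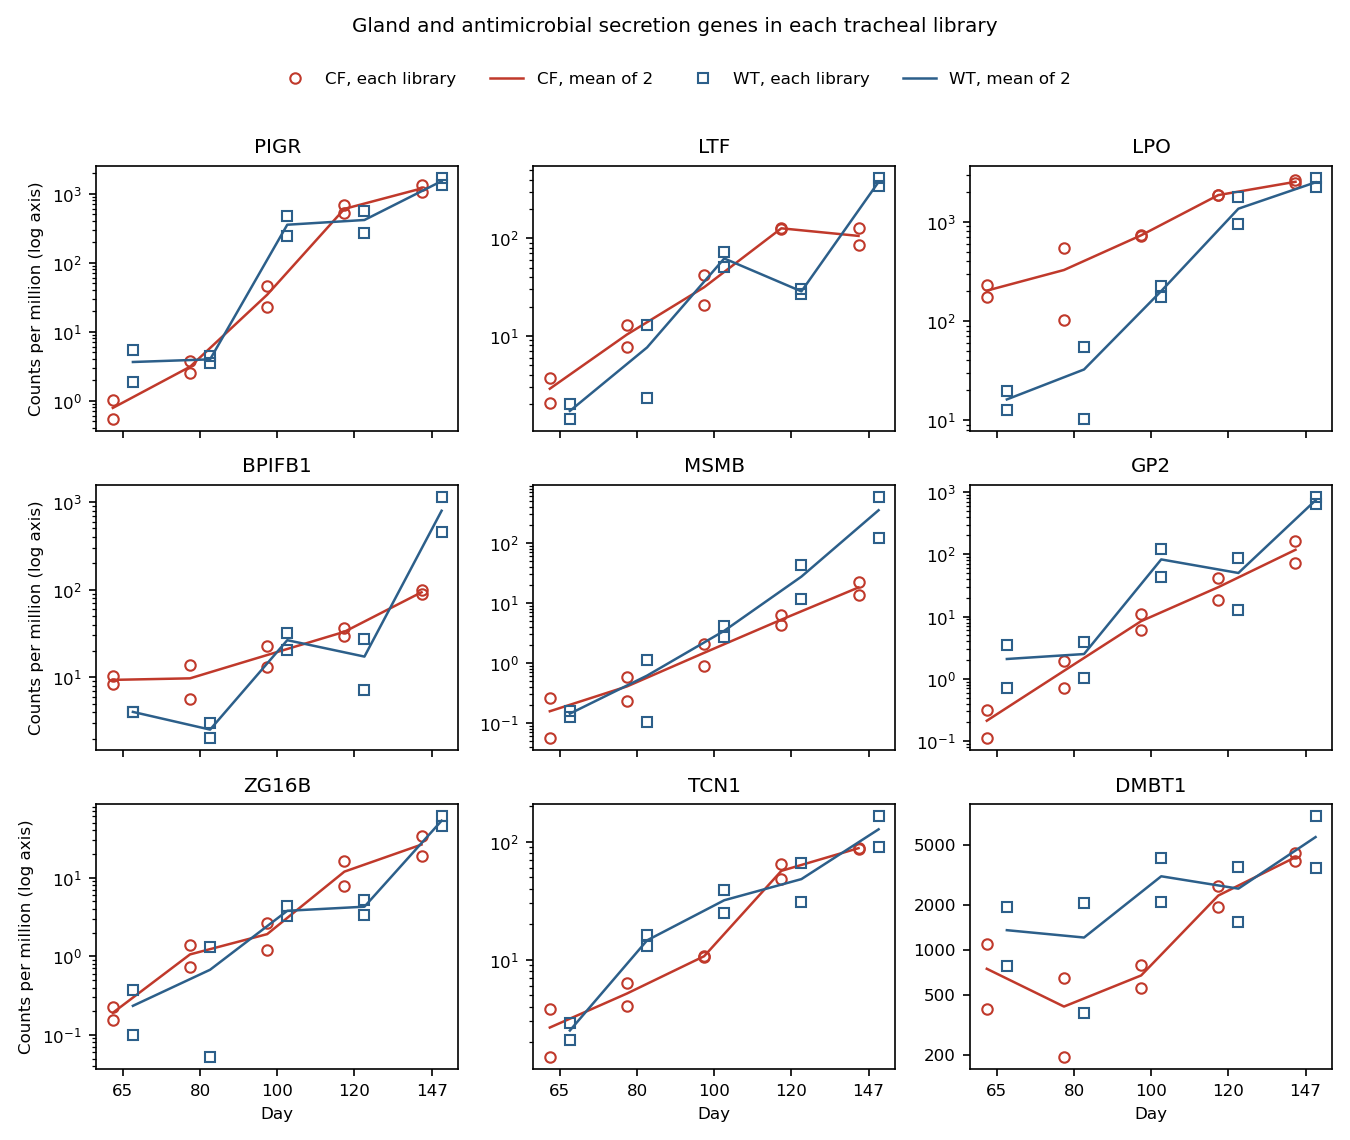
CPM (log axis) of each gene by day in each of the 20 libraries, CF as red circles and WT as blue squares, with lines through the mean of the 2 libraries of a group. LPO lies higher in both CF libraries at days 65, 80, 100 and 120 and meets WT at day 147, while GP2 lies lower in both CF libraries at days 65, 100 and 147.

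PIGR (chromosome 12, 3986944 to 4004957, minus strand) encodes the polymeric immunoglobulin receptor, which carries dimeric IgA from plasma cells across glandular and surface epithelium and is shed with it as secretory component. The CF libraries had 1.02 and 0.548 CPM at day 65, 2.50 and 3.70 at day 80, 46.1 and 22.7 at day 100, 520.3 and 686 at day 120, and 1324 and 1062 CPM at day 147. The WT libraries had 1.88 and 5.39 CPM at day 65, 3.46 and 4.48 at day 80, 240.1 and 470.5 at day 100, 560.2 and 272 at day 120, and 1700.0 and 1349 CPM at day 147. Both CF libraries were below both WT libraries at days 65, 100 and 147, by the widest gap at day 100. The genotypes overlapped at days 80 and 120. Of all tested genes 23.7%, 30% and 15.6% lay wholly lower in CF at days 65, 100 and 147.

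The difference of PIGR at day 100 was -3.37 ± 0.59 on the log2 scale (SE, CF over WT), 10.3-fold lower in CF (adjusted p = 0.0155, edgeR, Benjamini-Hochberg). PIGR was the 1 of the 9 genes called at that age, against 1.46% of all tested genes in either direction, 1.4% higher and 0.0597% lower. It passed in 17 of 20 fits with 1 library left out, but not without CF day 100 replicate 1 (-3.97, adjusted p = 0.0654), CF day 100 replicate 2 (-2.95, adjusted p = 0.192) or WT day 100 replicate 2 (-2.88, adjusted p = 0.168), nor with the libraries of a shared identifier summed (-3.60, adjusted p = 0.151), all by edgeR. The epithelium score, the mean log2 CPM of 20 epithelial genes, was 6.79 and 6.65 in the CF libraries and 7.22 and 7.34 in the WT libraries of day 100. With that score in the fit, the difference of PIGR was -3.37 ± 0.65 log2 (SE, adjusted p = 0.0336, edgeR).

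Over both genotypes the largest step of PIGR came between days 80 and 100, at 4.98 ± 0.45 log2 (SE, adjusted p = 0.00152, edgeR, Benjamini-Hochberg). The WT mean went from 3.97 to 355 CPM at that step. The CF mean went from 3.10 to 34.4 CPM there and on to 603 CPM at day 120, the larger step in fold for CF. The partner genes of antibody transport moved less. Of 11 tested genes of that pathway 3 were higher at birth than at day 65, against 8.77% of all tested genes. These were TNFSF13, a B cell survival factor, by 2.67 log2, CCL28, which draws IgA plasma cells to mucosa, by 1.45, and IRF1, an interferon-induced transcription factor, by 1.41. JCHAIN, the joining chain of the IgA dimer, stayed between 1.95 and 9.64 CPM in every library and MZB1, a plasma cell chaperone, between 0.596 and 10.8 CPM. These 2 were named after their values were seen and do not stand for the list. Among 11 tested plasma and B cell markers CD79B, a subunit of the B cell receptor, was lower at birth by 5.39 log2. The summed level of 12 such markers ran from 24.7 to 109 CPM over the libraries, while PIGR was at 1062 CPM or more in all 4 libraries of birth.

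LTF (chromosome 19, 52886946 to 52916930, plus strand) encodes lactoferrin, an iron-binding protein of serous gland cells that starves bacteria of iron. Its CF libraries had 2.06 and 3.71 CPM at day 65, 13.0 and 7.72 at day 80, 42.4 and 20.8 at day 100, 129 and 124 at day 120, and 84.6 and 127 CPM at day 147. Its WT libraries had 1.99 and 1.42 CPM at day 65, 12.9 and 2.32 at day 80, 72.9 and 51.5 at day 100, 30.5 and 26.8 at day 120, and 416 and 340.4 CPM at day 147. Both CF libraries were above both WT libraries at day 120 and below both at days 100 and 147, and the CF mean at birth was below that of day 120.

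The difference of LTF between CF and WT therefore ran from -1.84 ± 0.61 log2 at birth to 2.14 ± 0.62 at day 120 (SE), and at no age did it pass (adjusted p = 0.395 at birth and 1 at day 120, edgeR, Benjamini-Hochberg). Averaged over the ages it was 0.10 ± 0.27 (adjusted p = 0.938, edgeR). A test that the genotype difference was equal at all ages gave an adjusted p of 0.329 for LTF (F test in edgeR) and an unadjusted p of 0.00484. At birth LTF was higher than at day 65 in CF by 5.20 ± 0.71 log2 and in WT by 7.79 ± 0.80 (SE, adjusted p = 0.00157 and 0.000417, edgeR). Over both genotypes TF, which encodes plasma transferrin, was at -1.75 log2 (unadjusted p = 0.0179, adjusted p = 0.0773, edgeR) and TFRC, the transferrin receptor, at -0.34. The summed level of the transferrin family was highest in CF day 65 replicate 2, which was also high in liver genes.

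LPO encodes lactoperoxidase, a secreted haem enzyme that turns thiocyanate and hydrogen peroxide into the bactericidal oxidant hypothiocyanite. The CF libraries had 229 and 176 CPM at day 65, 103 and 551 at day 80, 723 and 740.1 at day 100, 1861 and 1861 at day 120, and 2615 and 2454 CPM at day 147. The WT libraries had 19.8 and 12.5 CPM at day 65, 54.5 and 10.3 at day 80, 174 and 226 at day 100, 1764 and 949 at day 120, and 2778 and 2229.6 CPM at day 147. Up to day 120 both CF libraries lay above both WT libraries, and at birth they overlapped. The CF mean at day 65, 202 ± 37.9 CPM, was close to the WT mean at day 100, 200.3 ± 36.9 CPM (SD, n = 2 each).

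Over the mean of the ages LPO was higher in CF by 1.86 ± 0.33 log2 (SE), which is 3.64-fold (adjusted p = 0.0257, edgeR, Benjamini-Hochberg). It was the 1 of the 9 genes called in that comparison, against 0.766% of all tested genes in either direction, 0.458% higher and 0.309% lower. At day 65 the difference was 3.64 ± 0.80 log2, followed by 3.33 ± 0.79 for day 80, 1.87 ± 0.74 for day 100, 0.46 ± 0.72 for day 120 and 0.02 ± 0.72 for birth (SE). No single age passed, with adjusted p of 0.815, 0.278, 0.317, 1 and 1 in the same order. The value at day 80 was 1.63 log2 with CF day 80 replicate 2 left out (adjusted p = 0.375), and 5.02 with WT day 80 replicate 1 left out, at which it passed (adjusted p = 0.0176, edgeR). The test of equal differences at all ages did not pass either (F test in edgeR, adjusted p = 0.464).

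LPO over the mean of ages passed in 6 of 20 fits with 1 library left out, at 1.51 to 2.18 log2 and an adjusted p of 0.00453 to 0.0828 (edgeR), and did not pass with the libraries of a shared identifier summed, at 1.83 log2 (adjusted p = 0.190). The difference was 1.84 log2 without the 4 libraries holding other tissue. Those 4 came from the earliest ages, where the LPO difference was largest, and leaving them out leaves 1 library in each group there. With the epithelium score in the fit the difference was 1.98 ± 0.28 log2 (SE, adjusted p = 0.0117, edgeR). That score is a mean of general epithelial genes and does not measure the share of gland or secretory cells. The part of tissue make-up in the LPO difference was not tested. LPO and LTF were singled out with these differences already known.

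**Figure D2:**
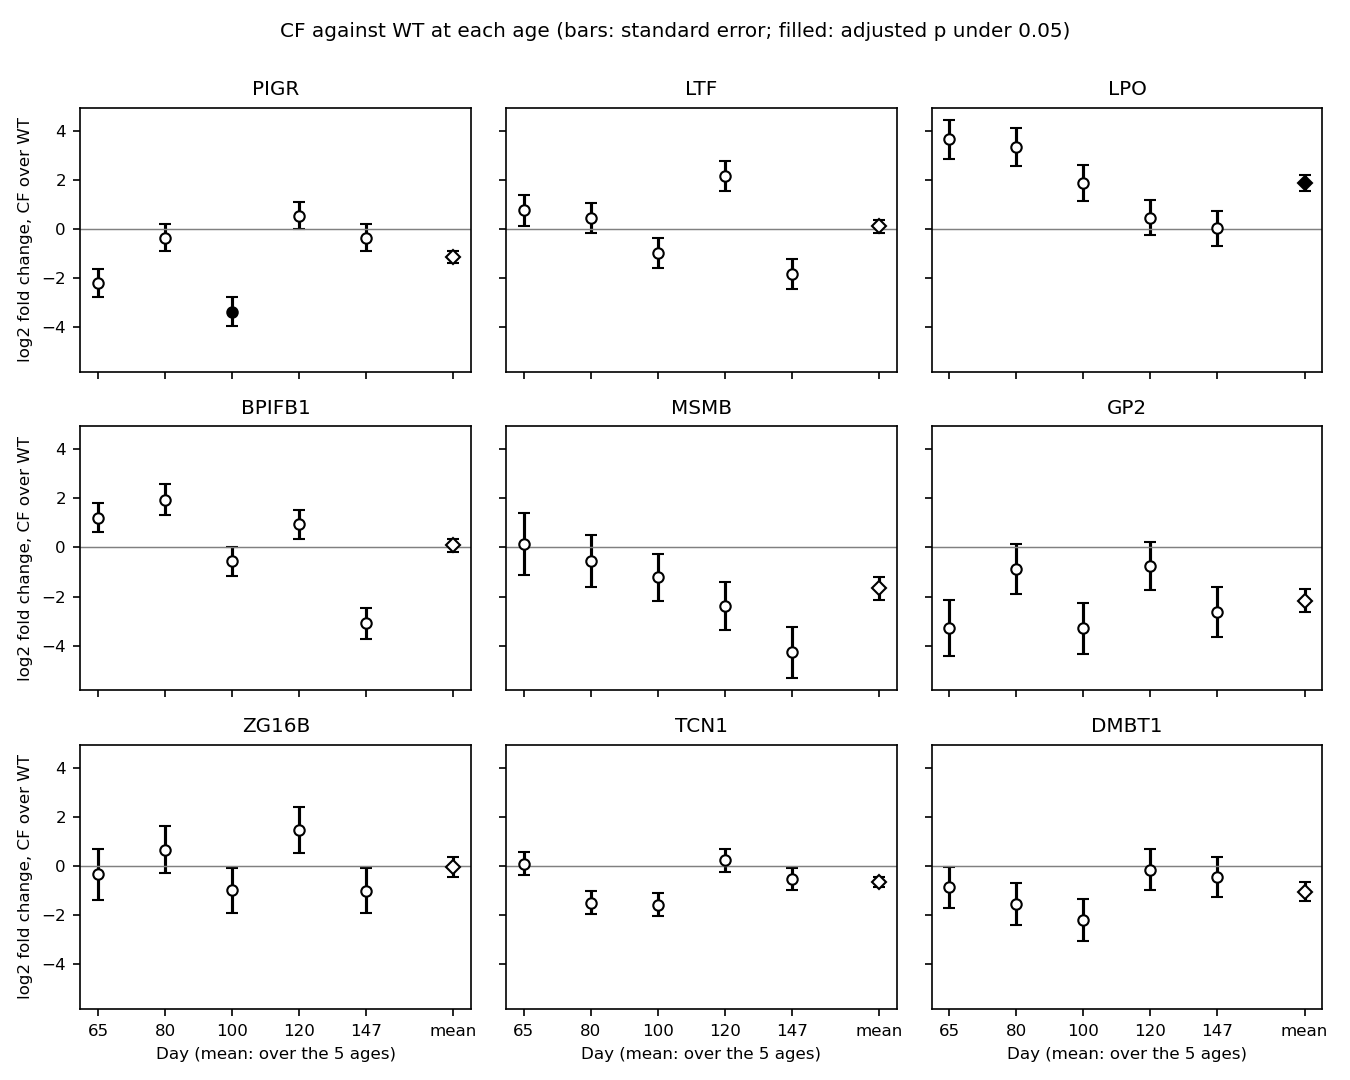
Log2 fold change of CF over WT for each gene at each of the 5 ages (circles) and over their mean (diamond), with bars of 1 standard error and filled symbols where the adjusted p is under 0.05. The 2 filled symbols are PIGR at day 100, below 0, and LPO over the mean of the ages, above 0, and the LPO circles lie lower at each later age.

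The enzymes that feed lactoperoxidase with hydrogen peroxide and its substrate did not follow it as a group. Of 8 tested genes of that system 1 was higher at birth than at day 65, against 8.77% of all tested genes. It was NOXO1, which organises an NADPH oxidase, by 4.08 ± 0.46 log2 (SE, adjusted p = 9.46e-05, edgeR, Benjamini-Hochberg). NOXO1 had 25.6 and 30.2 CPM in the CF libraries of day 147 and 104 and 165 CPM in the WT libraries, a difference of -2.27 ± 0.60 log2 that did not pass (adjusted p = 0.233, edgeR). DUOX1 and DUOX2, the dual oxidases of airway and thyroid, were at -0.71 and -1.84 log2 at birth against day 65, neither past the threshold. DUOX2 averaged 191.8 CPM in WT at day 80, the group with the library high in thyroid genes, and at most 2.03 CPM in the other groups.

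MPO encodes myeloperoxidase, the peroxidase of neutrophil granules, and lies beside LPO. In the coordinates of the count tables LPO spans chromosome 11 from 8745903 to 8775927 on the plus strand, and MPO from 8777277 to 8787874 on the minus strand, so that 1349 bases part their 3' ends. The sources used here name neither the genome build nor whether the counting used strand. MPO was higher at birth than at day 65 by 5.55 ± 0.80 log2 (SE, adjusted p = 0.000515, edgeR, Benjamini-Hochberg), close to the 5.46 ± 0.62 of LPO.

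The CF libraries had 0.837 and 3.09 CPM of MPO at day 65 and 16.1 and 15.8 CPM at birth, and the WT libraries 0.127 and 0.381 CPM at day 65 and 97.5 and 37.7 CPM at birth. The level of MPO was between 0.225% and 6.44% of that of LPO in every library. Both of these extremes were at day 80, in a CF library high in muscle genes and a WT library high in thyroid genes. Of 15 tested neutrophil genes 4 were higher at birth, against 8.77% of all tested genes. They were MPO, S100A8, S100A9 and LCN2, of which the last 3 are also made by epithelium. Of the other listed genes, ELANE and MMP8 were at most 1.13 and 0.149 CPM in any library. CSF3R, the receptor of granulocyte colony-stimulating factor, was at most 8.42 CPM, in WT day 147 replicate 1. These 3 were named after their values were seen and do not stand for the list. The summed level of the 16 neutrophil genes in the tables ran from 12.2 CPM to 148 CPM, the latter in WT day 147 replicate 1. The part of neutrophils in the MPO, LTF and TCN1 levels was not tested.

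BPIFB1 (chromosome 13, 62072314 to 62112501, plus strand), or LPLUNC1, is a secreted protein of the BPI fold family, made by mucous gland cells and surface goblet cells, that binds bacterial lipopolysaccharide. The CF libraries had 8.36 and 10.3 CPM at day 65, 5.69 and 13.8 at day 80, 22.7 and 13.3 at day 100, 29.4 and 36.7 at day 120, and 88.4 and 98.5 CPM at day 147. The WT libraries had 4.07 and 3.99 CPM at day 65, 3.02 and 2.04 at day 80, 32.3 and 20.7 at day 100, 7.11 and 27.4 at day 120, and 451 and 1141 CPM at day 147. Both CF libraries were above both WT libraries at days 65, 80 and 120, and below both at birth.

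At birth BPIFB1 differed by -3.09 ± 0.64 log2 between CF and WT (SE), 8.52-fold in size, which did not pass (adjusted p = 0.103, edgeR, Benjamini-Hochberg). It passed at -3.21 ± 0.50 with the epithelium score in the fit (adjusted p = 0.0374), at -2.72 ± 0.51 with the length slope, which measures how a library's counts depend on gene length, in the fit (adjusted p = 0.0279, both edgeR), and at -3.10 ± 0.61 with DESeq2 (adjusted p = 0.00015). Without WT day 147 replicate 2 it was -2.25 log2 (adjusted p = 0.426, edgeR). The development of BPIFB1 was the most unequal of the 9 genes by p. It was higher at birth than at day 65 by 3.32 ± 0.64 log2 in CF and by 7.63 ± 0.79 in WT (SE), a difference of -4.30 ± 0.87 with an adjusted p of 0.354 (edgeR) and an unadjusted p of 0.000282. Between days 120 and 147 it was the 1 of the 9 genes called, at 3.51 ± 0.46 log2 over both genotypes (SE, adjusted p = 0.0269, edgeR), against 0.134% of all tested genes in either direction, 0.0498% higher and 0.0846% lower. This call was lost in 6 of 20 fits with 1 library left out, those without WT day 120 replicate 1, WT day 147 replicate 2 or any of the 4 CF libraries of these ages.

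Of 8 other tested genes of the BPI family 3 were higher at birth than at day 65 over both genotypes, against 8.77% of all tested genes. They were BPIFA1, or SPLUNC1, an abundant surface and gland protein, by 7.62 log2, LBP, the lipopolysaccharide carrier, by 2.80, and BPIFB2. BPIFA1 had 3.18 and 2.47 CPM in the CF libraries of birth and 155 and 1312 CPM in the WT libraries, a difference of -8.02 ± 1.42 log2 that did not pass (SE, adjusted p = 0.0547, edgeR, Benjamini-Hochberg). In WT day 147 replicate 2, which held the higher level of both BPIFB1 and BPIFA1, the summed level of 8 surface secretory genes, BPIFA1 among them, was also the highest of all libraries, at 85590.1 CPM against at most 28337 CPM in the others. The part of surface secretory cells in these levels was not tested.

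MSMB (chromosome 25, 43504837 to 43515168, minus strand) encodes beta-microseminoprotein, a small secreted protein of prostate and of airway glands and goblet cells. Its CF libraries had 0.0568 and 0.258 CPM at day 65, 0.231 and 0.585 at day 80, 2.07 and 0.889 at day 100, 6.30 and 4.24 at day 120, and 13.8 and 22.4 CPM at day 147. Its WT libraries had 0.127 and 0.160 CPM at day 65, 1.13 and 0.104 at day 80, 4.21 and 2.67 at day 100, 11.8 and 43.1 at day 120, and 119 and 580.4 CPM at day 147. From day 100 on both CF libraries were below both WT libraries, and the 2 WT libraries of birth were themselves 4.86-fold apart.

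The difference of MSMB was -1.21 ± 0.96 log2 at day 100, -2.38 ± 0.98 at day 120 and -4.27 ± 1.06 at day 147 (SE, CF over WT), none past the threshold (adjusted p = 0.584, 1 and 0.192, edgeR, Benjamini-Hochberg). At birth it passed with the length slope in the fit, at -3.43 ± 0.55 (adjusted p = 0.0138, edgeR), and with DESeq2, at -4.28 ± 0.95 (adjusted p = 0.00119). Without WT day 147 replicate 2 the value at birth was -2.70 (adjusted p = 0.716), without WT day 120 replicate 2 that at day 120 was -1.18, and with the length slope in the fit that at day 100 was 0.07 (edgeR). MSMB had the largest increase of the 9 genes within WT, 11.25 ± 1.46 log2 at birth against day 65, and an increase of 6.86 ± 1.25 in CF (SE, adjusted p = 0.00109 and 0.00627). At day 65 these levels rest on 4 to 16 counts per library, so the sizes of the increases are loosely set.

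GP2 (chromosome 24, 17932793 to 17951045, minus strand), glycoprotein 2, is a zymogen granule membrane protein that is shed into secretions and binds type 1 fimbriae of bacteria, known best from pancreas. The CF libraries had 0.312 and 0.113 CPM at day 65, 0.717 and 1.97 at day 80, 10.9 and 5.99 at day 100, 18.3 and 40.9 at day 120, and 164 and 71.9 CPM at day 147. The WT libraries had 3.46 and 0.701 CPM at day 65, 3.95 and 1.04 at day 80, 121 and 43.6 at day 100, 12.7 and 87.4 at day 120, and 828 and 639 CPM at day 147. Both CF libraries were below both WT libraries at days 65, 100 and 147, and the groups overlapped at days 80 and 120.

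Over the mean of the ages GP2 differed by -2.17 ± 0.46 log2 between CF and WT (SE), the largest difference in size of the 9 genes, which missed the threshold (adjusted p = 0.0516, edgeR, Benjamini-Hochberg). It passed without the filter on low counts (adjusted p = 0.0489), with the length slope in the fit (adjusted p = 0.0405) and with DESeq2 (adjusted p = 4.41e-05). It did not pass with scaling by library size alone, or with the epithelium score or the replicate number in the fit. Nor did it pass with the libraries of a shared identifier summed or without the 4 libraries holding other tissue. The summed level of 9 pancreatic genes was at most 9.14 CPM in any library. Of 6 other tested genes with a zona pellucida domain, which GP2 shares, 1 was higher at birth than at day 65, against 8.77% of all tested genes. It was TECTB, a tectorial membrane gene, by 8.86 log2.

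ZG16B (chromosome 24, 2203223 to 2205025, minus strand) encodes a secreted lectin of salivary and airway glands. It ran from 0.156 CPM in a library of day 65 to 33.8 CPM in a library of birth in CF, and from 0.0522 CPM in WT day 80 replicate 2, the library high in thyroid genes, to 60.2 CPM at birth in WT. At birth against day 65 it was higher by 7.09 ± 1.21 log2 in CF and by 7.76 ± 1.24 in WT (SE, adjusted p = 0.00441 and 0.00279, edgeR, Benjamini-Hochberg). Over the mean of the ages CF and WT differed by -0.04 ± 0.42 log2, the smallest difference of the 9 genes. The largest gap between 2 libraries of a group among all 9 genes, 24.8-fold, was that of ZG16B in WT at day 80.

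TCN1 (chromosome 15, 79900157 to 79916380, minus strand) encodes haptocorrin, which binds vitamin B12 in secretions and is made by gland cells and neutrophils. It averaged 2.67 ± 1.65 CPM at day 65 and 88.2 ± 1.05 CPM at day 147 in CF, and 2.52 ± 0.581 CPM at day 65 and 127 ± 52.4 CPM at day 147 in WT (SD, n = 2 each). At birth against day 65 it was higher by 5.05 ± 0.55 log2 in CF and by 5.66 ± 0.57 in WT (SE, adjusted p = 0.000704 and 0.000406, edgeR, Benjamini-Hochberg). At days 80 and 100 both CF libraries were below both WT libraries, with 4.02 and 6.33 CPM against 16.1 and 13.1 CPM at day 80, and 10.8 and 10.6 CPM against 25.1 and 38.7 CPM at day 100. These differences, -1.49 ± 0.47 and -1.57 ± 0.47 log2 (SE), did not pass (adjusted p = 0.300 and 0.143, edgeR). Of 8 other tested genes of vitamin B12 transport and use 1 was higher at birth, MMADHC, by 0.61 log2, against 8.77% of all tested genes higher.

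DMBT1 (chromosome 22, 41271542 to 41333398, plus strand) encodes a large mucin-like scavenger receptor, also called salivary agglutinin, that clumps bacteria and binds surfactant proteins. The CF libraries had 1096 and 407 CPM at day 65, 194 and 648 at day 80, 556 and 801 at day 100, 2677 and 1956 at day 120, and 3927 and 4421 CPM at day 147. The WT libraries had 1935 and 785 CPM at day 65, 2051 and 378 at day 80, 2082 and 4144 at day 100, 3610.1 and 1538 at day 120, and 7833 and 3538 CPM at day 147. The groups overlapped at every age but day 100, at which both CF libraries were below both WT libraries, by -2.20 ± 0.87 log2 (SE, adjusted p = 0.312, edgeR, Benjamini-Hochberg).

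DMBT1 was the 1 gene of the 9 that was not called for birth against day 65 within a genotype, at 2.47 ± 0.87 log2 in CF and 2.06 ± 0.86 in WT (SE, adjusted p = 0.137 and 0.144, edgeR), while DESeq2 called it in both, at 2.50 in CF and 2.10 in WT (adjusted p = 0.0174 and 0.0422). Over both genotypes it was higher by 2.27 ± 0.61 (adjusted p = 0.0222, edgeR), a call lost without WT day 65 replicate 2 (2.01), CF day 65 replicate 2 (1.99) or CF day 147 replicate 2 (2.26), without all 4 libraries holding other tissue (1.74), and with the libraries of a shared identifier summed (2.31). Of 7 other tested genes with scavenger receptor domains 3 were lower at birth, against 9.86% of all tested genes. They were LOXL2 and LOXL3, collagen crosslinkers, by 1.76 and 1.23 log2, and SCARA5, a ferritin receptor, by 1.10. The protein of DMBT1 holds many near-identical repeats, and the sources used here do not say how reads that match several places were counted.

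The genes appeared in an order that differed between genotypes. As a description with no test, appearance was set as the first age at which the mean of the 2 libraries reached 10% of the highest mean of that genotype. In CF these ages were day 65 for DMBT1, day 80 for LPO and BPIFB1, day 100 for LTF and TCN1, and day 120 for PIGR, MSMB, GP2 and ZG16B. In WT they were day 65 for DMBT1, day 80 for TCN1, day 100 for PIGR, LTF and GP2, day 120 for LPO, and day 147 for BPIFB1, MSMB and ZG16B. DMBT1 thus came first in both genotypes, and MSMB and ZG16B were among the last in both. In WT, LTF and GP2 reached 16.4% and 11.3% at day 100 but were at 7.57% and 6.82% at day 120. The WT libraries of day 100 share an identifier.

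By this measure, which divides by the highest mean of the same genotype, LPO, BPIFB1, MSMB and ZG16B came at an earlier age in CF than in WT, PIGR, GP2 and TCN1 at a later age, and DMBT1 and LTF at the same age. For GP2 and LTF this rests on WT means of day 100 that were not held at day 120. For MSMB the levels themselves were not higher in CF, with means at day 120 of 5.27 ± 1.46 CPM in CF and 27.5 ± 22.2 CPM in WT, and highest means of 18.1 ± 6.09 CPM in CF and 349.9 ± 326 CPM in WT (SD, n = 2 each). The highest mean of ZG16B was also lower in CF, 26.3 ± 10.7 CPM against 52.8 ± 10.5 CPM in WT. For BPIFB1 the earlier age rests on the highest mean as much as on the early levels, since its CF mean at birth was 93.5 ± 7.18 CPM, against 796 ± 488 CPM in WT (SD, n = 2 each), and its CF mean at day 65 was already 9.998% of the highest. For LPO the highest means were alike, 2534 ± 114 CPM in CF and 2504 ± 388 CPM in WT (SD, n = 2 each), and the day 65 means were 7.98% of that in CF and 0.646% in WT. The level of 50% was first reached at day 120 by 5 genes and at day 147 by 4 genes in CF, and at day 100 by 1 gene, day 120 by 1 gene and day 147 by 7 genes in WT. The WT gene of day 100 was DMBT1, at 54.8%, which was back at 45.3% at day 120.

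**Figure D3:**
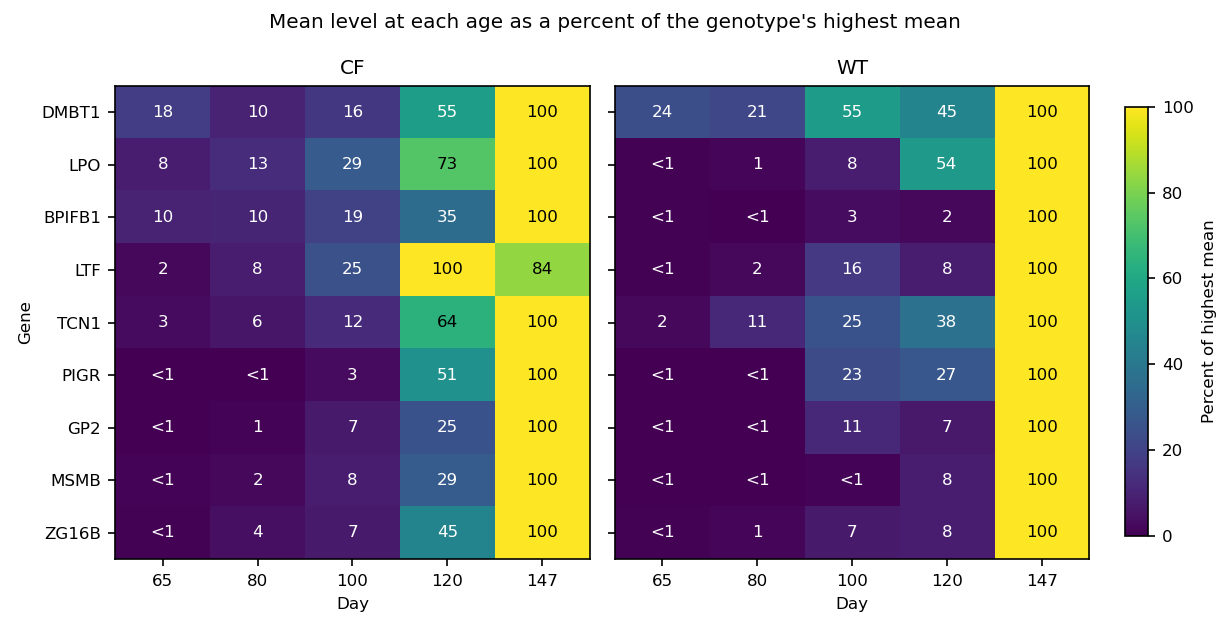
Mean level of each gene at each day as a percent of the highest mean of that gene in the same genotype, CF on the left and WT on the right, with brighter colour for a higher percent. CF reached 100% at day 147 for all genes but LTF, whose highest mean was at day 120, and at day 65 LPO stood at 7.98% in CF and 0.646% in WT.

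Of the 18 combinations of gene and genotype, 12 had the same first age at 10% from replicate 1 alone and 13 from replicate 2 alone. For the level of 50% the same held for 14 and 15 of the 18. Dividing each library by its epithelial level left 13 of 18 first ages at 10% and 15 of 18 at 50% as they were. Since each genotype has 2 libraries at an age, single steps of this order are within the reach of 1 library.

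Tested from age to age over both genotypes, the step from day 80 to day 100 had the most calls. At day 100 against day 80, 5 of the 9 genes were called, all higher, against 8.92% of all tested genes in either direction, 3.22% higher and 5.7% lower (edgeR's quasi-likelihood test, adjusted p under 0.05), with a median log2 fold change of 2.14 over the 9 genes and -0.11 over all. Besides PIGR they were GP2 at 3.85 ± 0.77 log2, LTF at 2.32 ± 0.44, BPIFB1 at 2.14 ± 0.44 and LPO at 1.90 ± 0.53 (SE, adjusted p from 0.0104 to 0.0425, edgeR). Fewer of the 9 were called at this step without CF day 100 replicate 1 or without the 4 libraries holding other tissue, and more without WT day 80 replicate 1. With the epithelium score in the fit 1 was called. That score lay at 5.13 and 6.59 in the CF libraries and 6.67 and 6.34 in the WT libraries of day 80. No share of all tested genes is given for these fits, so their counts cannot be set against all tested genes.

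Between days 65 and 80 edgeR called none of the 9 genes and 0% of all tested genes. Before adjustment 4 of the 9 passed 0.05, and DESeq2 called 3 (LTF, ZG16B and TCN1). Between days 100 and 120 edgeR called none, against 0.0995% of all tested genes. Before adjustment 4 passed 0.05, and DESeq2 called 4 (PIGR, LPO, MSMB and TCN1). The shares of all tested genes given here are those of edgeR after adjustment. None is given for the counts before adjustment or by DESeq2, so these cannot be set against all tested genes. All 9 log2 fold changes over both genotypes were positive at each of the 3 steps from day 80 on, with medians of 2.14, 1.40 and 1.73. Within a genotype not every mean rose. From day 100 to day 120 the WT means fell for LTF (62.2 to 28.6 CPM), BPIFB1 (26.5 to 17.2), GP2 (82.6 to 50.0) and DMBT1 (3113 to 2574). From day 120 to birth the CF mean of LTF fell from 127 to 106 CPM. The other means rose at these steps.

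Within each genotype 8 of the 9 genes were higher at birth than at day 65, against 5.49% of all tested genes called in CF (1.78% higher, 3.71% lower) and 8.23% in WT (3.70% higher, 4.53% lower). The increase in CF ran from 3.32 log2 for BPIFB1 to 10.56 for PIGR among those called, and in WT from 5.66 for TCN1 to 11.25 for MSMB. For LTF, LPO, BPIFB1 and MSMB the increase was smaller in CF than in WT by 2.59 to 4.39 log2 and for PIGR larger by 1.85, and these 5 passed 0.05 before adjustment. Without WT day 65 replicate 2 the value for PIGR was 0.90, and without the 4 libraries holding other tissue 0.52. After adjustment none of the 9 passed in this test of the difference (edgeR, 0.00498% of all tested genes), and DESeq2 called 1, BPIFB1. No share of all tested genes is given for the 5 before adjustment or the 1 by DESeq2. Fewer of the 9 were called in CF without CF day 65 replicate 1, and with the libraries of a shared identifier summed. Each of these fits leaves 1 library in a group compared, and no share of all tested genes is given for them.

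**Figure D4:**
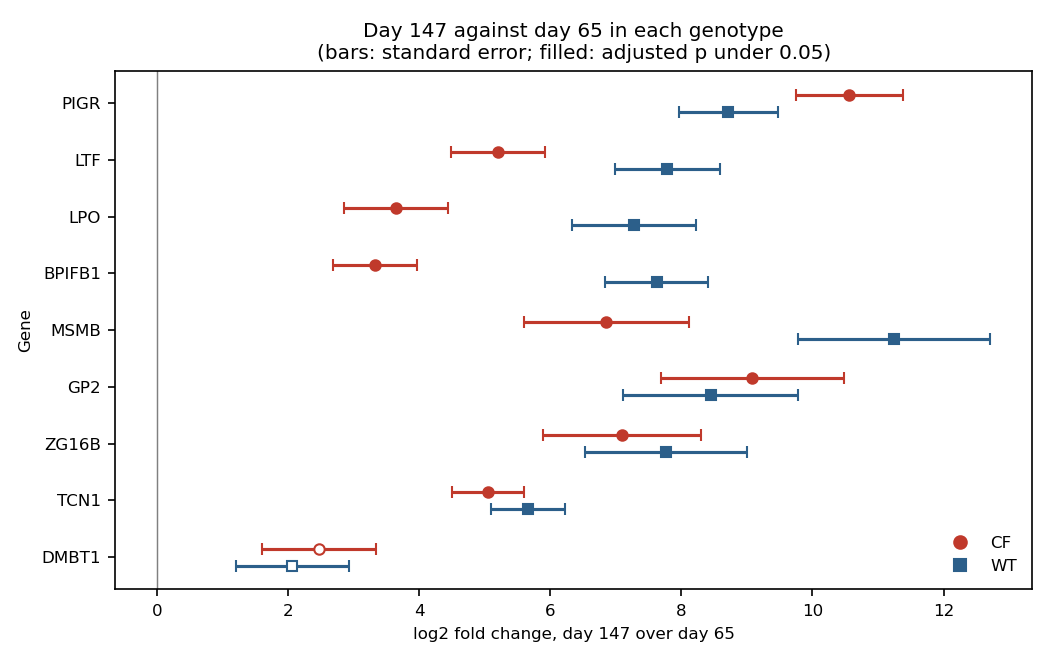
Log2 fold change of day 147 over day 65 for each gene in CF (red circles, upper) and WT (blue squares, lower), with bars of 1 standard error and filled symbols where the adjusted p is under 0.05. CF lies left of WT by more than the bars for LTF, LPO, BPIFB1 and MSMB and right of it for PIGR, and DMBT1 has the smallest fold change and open symbols in both.

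At days 100 and 147 the CF level was below the WT level for 8 of the 9 genes, and at days 65, 80 and 120 the signs were mixed. The CF libraries lay wholly above the WT libraries for 3 genes at day 65 (LTF, LPO and BPIFB1), against 23.8% of all tested genes, and wholly below for 2 (PIGR and GP2), against 23.7%. At day 80 the counts were 2 above and 1 below (11.5% and 10.8% of all tested genes), at day 100 they were 1 above and 7 below (40.5% and 30%), at day 120 they were 4 above and 1 below (8.91% and 7.61%), and at day 147 they were 0 above and 7 below (15.6% each). LPO was the 1 gene above at day 100, and at birth the genes that overlapped were LPO and DMBT1.

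The median difference over the 9 genes was -1.21 log2 at day 100 and -1.01 at day 147, against 0.12 and -0.06 over all tested genes. At days 65, 80, 120 and 147 no gene of the 9 was called by edgeR, with 0.00995%, 0%, 0% and 0.0945% of all tested genes called (0.0498% higher and 0.0448% lower at day 147). Before adjustment 3, 3, 2 and 4 of the 9 passed 0.05 at these ages, and DESeq2 called 2, 1, 0 and 2. The 2 at day 65 were PIGR and LPO, the 1 at day 80 was LPO, and the 2 at birth were BPIFB1 and MSMB. None of the 9 passed the test of a genotype difference that varies with age (F test in edgeR, 0.0697% of all tested genes), for which BPIFB1 had the lowest adjusted p, 0.137, and PIGR the next, 0.205. Before adjustment 5 passed 0.05 in that test, BPIFB1, PIGR, LTF, LPO and TCN1. No share of all tested genes stands beside the counts before adjustment or by DESeq2, so these cannot be set against all tested genes.

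Scaled by gene length as well, as reads per kilobase of exon and library size (RPKM), DMBT1 and LPO were the most abundant of the 9 at birth in both genotypes. In CF at birth DMBT1 averaged 1159 ± 97.0 RPKM and LPO 913 ± 41.0, followed by PIGR at 300.1 ± 46.6 RPKM (SD, n = 2 each). LTF at 49.8 RPKM, BPIFB1 at 49.3, TCN1 at 44.2, ZG16B at 36.9, GP2 at 30.3 and MSMB at 24.2 RPKM came next, and among these 6 only the step from BPIFB1 to TCN1 exceeded the sum of the neighbours' SDs. The CF libraries of birth share an identifier, so their SDs may be technical. In WT at birth the order of levels was DMBT1 at 1578 ± 843, LPO at 902 ± 139.6, MSMB at 467 ± 435, BPIFB1 at 419.6 ± 257, PIGR at 384 ± 62.5, GP2 at 188 ± 34.4, LTF at 178 ± 25.3, ZG16B at 74.3 ± 14.7 and TCN1 at 63.8 ± 26.3 RPKM (SD, n = 2 each). Here only the steps from PIGR to GP2 and from LTF to ZG16B exceed the sum of the neighbours' SDs.

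By rank among the 20097 tested genes, DMBT1 was 104th and LPO 118th in CF at birth, and 88th and 139th in WT. MSMB was 2859th in CF and 223rd in WT. Together the 9 genes made up 0.832% and 0.838% of the scaled counts in the CF libraries of birth and 1.43% and 1.00% in the WT libraries, and 0.0599% to 0.197% in the 4 libraries of day 65.

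Replicates did not differ evenly. In WT at day 80, 8 of the 9 genes were higher in replicate 1 than in replicate 2, the library high in thyroid genes, and 6 were over 2-fold apart. In CF at day 80, 7 of the 9 were lower in replicate 1, the library high in muscle genes, and 5 were over 2-fold apart, with LPO 5.36-fold apart. In WT at day 120, where no library stood out for another tissue, 6 genes were also over 2-fold apart (GP2, 6.91-fold), and in CF at day 100 there were 4. In CF at birth, where both libraries share an identifier, 1 gene was over 2-fold apart (GP2, 2.28-fold), and in WT at day 100, where both also share one, again 1 (GP2, 2.78-fold). In WT at birth, with separate identifiers, 3 genes were over 2-fold apart.

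Over the 10 group means of log2 CPM the 9 genes varied together. The Pearson correlation of their 36 pairs ran from 0.532, for LPO with DMBT1, to 0.973, for LTF with ZG16B, with a median of 0.881, as a description of 10 points that share libraries and an age trend. The genes most like LTF in this measure were HIGD1A (0.991), ZG16B (0.973) and HS3ST1 (0.972), and those most like ZG16B were PRR15 (0.988), LTF and BCL3 (0.969). DMBT1 was most like CREB3L4 (0.990), a transcription factor of secretory cells, SPDEF (0.984), which specifies mucous cells, and MUT (0.971). TCN1 was most like THEM4 (0.987), SCGB3A2 (0.987), a secretoglobin, and MBD2 (0.984).

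PIGR was most like PRICKLE3 (0.979), ATP6V1B1 (0.977), a proton pump subunit, and C6H4orf32 (0.973). LPO was most like ATAD3A (0.970), PCTP (0.960) and KCNH3 (0.955), and BPIFB1 most like C2CD4B (0.967), DBT (0.960) and GLUL (0.958). MSMB was most like POR (0.977), AGPAT3 (0.977) and FCGR3A (0.969), and GP2 most like KCNJ2 (0.974), TAX1BP1 (0.965) and PTGER4 (0.964). No gene but LTF and ZG16B had another of the 9 among its 3 most similar genes.

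Not all other products of gland cells were called higher at birth. The 9 genes and these lists were chosen with earlier results of these data known, so how uniformly each increased cannot be compared. Of 11 other tested serous cell genes 5 were higher at birth than at day 65 over both genotypes, against 8.77% of all tested genes. Among them were AZGP1, zinc alpha-2 glycoprotein, by 4.09 log2, S100A1 by 2.35, RNASE4, a secreted ribonuclease, by 1.59 and CCL28. The median was 1.45 log2, against -0.03 over all tested genes. LYZ, the gene listed as lysozyme, a hallmark of human serous cells, was at most 1.48 CPM in any library. Sheep carry several lysozyme genes, and LYZ was named after its values were seen.

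Of 13 tested mucous cell genes 8 were higher at birth, against 8.77% of all tested genes. Among them were FCGBP, a mucus protein, by 2.74 log2, ST6GALNAC1, which adds sialic acid to mucins, by 2.67, MUC13, a membrane mucin, by 2.26 and GALNT12, which starts mucin glycosylation, by 1.47. MUC5B, the main gland mucin, was at 3.56 ± 1.19 log2 and did not pass (SE, adjusted p = 0.0540, edgeR, Benjamini-Hochberg), with at most 20.6 CPM in any library. It too was named after its values were seen. Of 16 regulators of secretory cells 6 were higher, among them XBP1, which expands the secretory pathway, by 1.29 log2, CREB3L4 by 2.44, SPDEF by 2.92 and ELF3, an epithelial factor, by 2.23.

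Of 28 tested genes of gland morphogenesis 5 were lower and 2 higher at birth than at day 65, against 9.86% lower and 8.77% higher of all tested genes, with LEF1, a Wnt effector needed for gland buds in mice, lower by 3.29 log2, EDA, the ectodysplasin ligand, by 2.07 and BMP7 by 1.69, and HEY1, a Notch target, higher by 1.43. Of 8 surface secretory genes 6 were higher, among them CLCA1 by 5.75 and SCGB3A2 by 5.27 log2, and of 14 multiciliated cell genes 9 were higher, among them DNAH9 by 1.82 and CCDC40 by 1.37 log2. Of 20 general epithelial genes 1 was higher, ELF3, and the list's median was 0.32 log2. Of 12 other antimicrobial genes 6 were higher, among them S100A8 by 4.47 and CCL20, a chemokine with antimicrobial activity, by 2.96 log2. Of 9 glucocorticoid-responsive genes 2 were higher, against the same 8.77% of all tested genes, KLF9 by 3.03 and DUSP1 by 2.41 log2.

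Some genes of these lists were called between CF and WT over the mean of the ages. Of all tested genes 0.766% were called there, 0.458% higher and 0.309% lower. No share of the listed genes is set beside these, so the calls do not set the lists apart from all tested genes. FCGBP was lower in CF by 1.75 log2 and CREB3L4 by 1.00, and FOXC1, of the morphogenesis list, was higher by 0.72 (adjusted p = 0.0147, 0.0428 and 0.0264, edgeR, Benjamini-Hochberg). At day 100, when PIGR was lower in CF, FCGBP had 103 and 91.4 CPM in the CF libraries and 727 and 1170 CPM in the WT libraries, and CREB3L4 3.52 and 3.50 CPM in CF and 13.9 and 16.8 CPM in WT. Both passed at that age, at -3.29 ± 0.68 and -2.13 ± 0.46 log2 (SE, adjusted p = 0.0319 and 0.0424, edgeR). Of all tested genes 1.46% were called at day 100, 1.4% higher and 0.0597% lower. The summed level of 8 surface secretory genes was 3787 and 5420.4 CPM in CF and 16258 and 20434 CPM in WT at that age, and its part in the PIGR difference was not tested.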

How the data were processed

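RNA was from tracheal tissue of 20 sheep samples, grouped by title. The submitters' processing notes name STAR 2.6, featureCounts 1.6.3 and Subread. The authors deposited whole-number counts per gene, not normalized, beside summed exon lengths, per the file headers. The sources used here name neither a genome build nor a strand setting. Low counts were mostly even numbers (70.7% to 85.3% of those from 1 to 20, and 50.1% to 58.3% of those from 1000 up).

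Genes were kept by filterByExpr, scaled by TMM and fitted with edgeR 4.0.16 (R 4.3.3) as a quasi-likelihood model with 1 coefficient for each of the 10 groups. P-values were adjusted by Benjamini-Hochberg across the 20097 genes kept, with a threshold of 0.05, and SE are the log2 fold change over the root of F. CPM and RPKM use the scaled library sizes, and log2 CPM a prior count of 2. DESeq2 1.42.0, other scalings, covariates and left-out libraries were alternatives. The comparison of CF with WT over the mean of ages was run on simulated counts without an age trend, with changed genes altered alike at all ages. The tests at single ages, between ages and of the difference of developments were not simulated. The RefSeq gene table of ARS-UI_Ramb_v3.0 was used for names only.

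The 9 genes and the gene lists were chosen with earlier results of these data known. All 9 are named in every comparison. Of a list up to 4 called genes of smallest p are named, and for each of the 9 the 3 genes most correlated with it among those with a mean log2 CPM of at least 1. An F test of whether the genotype difference was equal at all ages, from the same fit, was added to the planned tests.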

Additional observations from a re-analysis of the deposited data

How the results depend on the processing

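No called value of the 9 genes changed sign under the alternatives run, while 60 values of results that had not passed did, 1 of the widest being MSMB at day 80, at -0.54 log2, against 1.99 without WT day 80 replicate 1. With DESeq2 in place of edgeR, 4 of the 9 genes in place of 1 were called for CF against WT over the mean of ages, 2 in place of 0 at day 65, 1 in place of 0 at day 80, 3 in place of 1 at day 100, 2 in place of 0 at day 147, 9 in place of 8 for birth against day 65 in each genotype, and 1 in place of 0 for the difference of developments. For the steps between ages DESeq2 called 3 at day 80 against day 65, 8 in place of 5 at day 100 against day 80, 4 in place of 0 at day 120 against day 100 and 6 in place of 1 at day 147 against day 120. The share of all tested genes called under each alternative is not given. The counts of this section therefore do not show how the 9 genes compare with the rest. With the length slope in the fit the counts were 4 over the mean of ages, 2 at day 147, and 8, 2 and 2 for the 3 later steps. With the epithelium score they were 1 at day 147 and 1 at day 100 against day 80. Without the low-count filter 2 were called over the mean of ages.

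With the pairs that share an identifier summed, 0 were called over the mean of ages, 0 at day 100, 5 in place of 8 for CF at birth against day 65, 1 at day 100 against day 80 and 0 at day 147 against day 120. Without the 4 libraries holding other tissue the counts were 2 at day 100, and 2, 1 and 0 for the 3 later steps. The cause of these differences was not tested. Leaving out each library in turn gave 0 to 2 over the mean of ages, 0 to 1 at days 80 and 100, 4 to 8 for CF at birth against day 65, 8 to 9 for both genotypes, 0 to 1 at day 80 against day 65, 1 to 7 at day 100 against day 80 and 0 to 3 at day 147 against day 120.

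With a replicate block, 4 genes in place of 5 were called at day 100 against day 80, LPO at 1.90 log2 no longer passing (adjusted p = 0.0577, edgeR), and no other count changed. Over 45 pairs of groups the deviations of same-numbered libraries correlated at -0.588 to 0.733 (median 0.0231), 12 of them over 0.1, so the numbers do not pair the libraries. With 2 libraries per group, differences at a single age are loosely measured, and levels under 1 CPM rest on few counts.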
